A study of Mus musculus with 217 samples.

Results

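Transcripts of the adenosine receptors *Adora2a* and *Adora1* and of the orphan receptors *Gpr6*, *Gpr52*, *Gpr149* and *Gpr155* were followed in striatum and cortex of LacQ140 mice. The 6 genes were chosen by name, and 5 of them matched a row of both count tables, out of 54532 genes in all. *Gpr52* matched no gene of the annotation used and was not analysed here. RNA-Seq covered 217 libraries from 110 C57BL/6 mice, 107 from striatum and 110 from cortex. LacQ140 mice, labelled Hdh(LacO-140Q/+):beta-actin-LacIR tg, carry 1 *Htt* allele with an expanded repeat under lac operators, and a beta-actin promoter drives the Lac repressor in the whole animal. WT and WT + IPTG mice, labelled Hdh(LacO-+/+):beta-actin-LacIR tg, carry the same repressor transgene. IPTG, a lactose analog that releases the repressor, was given from E5. It was kept up throughout life in LacQ140 and WT + IPTG mice, withdrawn at 2 months in LacQ140_2M and at 8 months in LacQ140_8M mice, and never given to LacQ140_A and WT mice. All groups were sequenced at 6 and 12 months except LacQ140_8M, which was sequenced at 12 months. Each group held 5 females and 5 males, but for the 12-month striatum of WT, LacQ140 and LacQ140_8M mice, with 9 mice each. The 6-month libraries were labelled batch 1 and the 12-month libraries batch 2, so age and batch cannot be told apart.

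Spiny projection neurons make up most of the neurons of the striatum and fall into a D1 type, which forms the direct pathway, and a D2 type, which forms the indirect pathway. The receptor encoded by *Adora2a* sits on D2 type cells, couples to the G protein Golf and raises cAMP through adenylyl cyclase 5, against the D2 dopamine receptor. GPR6 is also found on D2 type cells and raises cAMP without a known need for ligand, whereas the *Adora1* receptor couples to Gi, lowers cAMP and is found widely in brain. GPR155 is a lysosomal cholesterol sensor with a receptor-like part, and little is known of GPR149. In bulk tissue, fewer cells of a type and less RNA per cell cannot be told apart.

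The members lie on 4 chromosomes of GRCm38. *Adora2a* (ENSMUSG00000020178) spans chr10:75316877-75334784 on the plus strand, with 3062 exonic bases. *Gpr6* (ENSMUSG00000046922) lies on the same chromosome at chr10:41069977-41072285, on the minus strand, with 1786 exonic bases. *Adora1* (ENSMUSG00000042429) spans chr1:134199223-134235431 on the minus strand, with 5785 exonic bases, of which 1162 overlap exons of *Mybph* on the other strand. *Gpr155* (ENSMUSG00000041762) spans chr2:73341506-73386572 on the minus strand, with 6679 exonic bases, and shares 120 and 166 of them with the antisense genes *Gm13703* and *Gm13709*. *Gpr149* (ENSMUSG00000043441) spans chr3:62529077-62605140 on the minus strand, with 4288 exonic bases. Whether strand was used in counting is not given in the sources used here, so reads in the shared bases of *Adora1* and *Gpr155* could belong to either gene.

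The RefSeq promoter table (GRCm38.p6) held windows for *Adora1*, *Gpr6* and *Gpr155*, and none for *Adora2a* or *Gpr149*. The 250 bases before the start of *Gpr6*, which was lower in LacQ140 striatum, and of *Adora1*, which did not pass the test there, are shown 5′ to 3′ on the gene's own strand. Capitals mark the cAMP response element TGACGTCA and the GC box GGGCGG, each searched on both strands; neither window held both motifs. *Adora1* had 2 windows, of which the 1 farther upstream is shown. The windows are chr10:41072291-41072540 (minus strand) for *Gpr6* and chr1:134235458-134235707 (minus strand) for *Adora1*.
Gpr6: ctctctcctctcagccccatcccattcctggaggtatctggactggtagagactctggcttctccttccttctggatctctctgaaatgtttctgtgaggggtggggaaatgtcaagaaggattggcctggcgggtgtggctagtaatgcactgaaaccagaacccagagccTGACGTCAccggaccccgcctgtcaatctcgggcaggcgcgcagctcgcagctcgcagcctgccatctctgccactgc
Adora1: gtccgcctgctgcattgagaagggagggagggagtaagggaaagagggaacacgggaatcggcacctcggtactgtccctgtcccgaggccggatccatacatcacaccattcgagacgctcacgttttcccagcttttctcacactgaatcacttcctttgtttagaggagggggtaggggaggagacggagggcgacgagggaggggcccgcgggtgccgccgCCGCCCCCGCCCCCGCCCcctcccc
The *Gpr6* window held 1 cAMP response element and no GC box, and the *Adora1* window held 3 GC boxes, read on the other strand, and no cAMP response element. The window of *Gpr155*, also lower in LacQ140 striatum, held 7 GC boxes and no cAMP response element, and the other *Adora1* window held neither motif. Among 32851 promoter windows of the same length, 1.55% held the cAMP response element and 32.74% the GC box.

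Library totals lay between 33292014 and 68038785 counts, and the sex label matched *Xist* and Y-linked genes in 217 of 217 libraries. Levels are given as CPM (a library's counts scaled to a common depth, with TMM factors), with the SD over mice. A gene was called where the adjusted p-value was under 0.05 and the change at least 20%, by edgeR's quasi-likelihood test with all groups of 1 tissue and age in 1 fit. *Htt*, the target of the repressor, was at 111 ± 11.5 CPM in WT + IPTG, 102 ± 10.9 in LacQ140, 87.7 ± 8.32 in LacQ140_A and 88.9 ± 8.89 in LacQ140_2M striatum at 6 months (SD, n = 10 each). At 12 months it was at 146 ± 11.2, 111 ± 10.9, 93.4 ± 15.9 and 100 ± 11.1 CPM in the same groups and at 111 ± 8.15 CPM in LacQ140_8M. These sums count both alleles. In cortex at 12 months *Htt* was at 26.4 ± 5.55 CPM in WT + IPTG, against 120 ± 11.3 CPM at 6 months. The slope of log2 CPM on log2 transcript length of each library ran from -0.29 to 0.06 in 12-month cortex and from 0.09 to 0.48 in the other libraries, so long transcripts were low in the 12-month cortex.

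Per kilobase of exon, the receptors stood far apart in WT + IPTG striatum. At 6 months *Adora2a* was at 105 CPM per kb (82.7 to 124 over 10 mice), *Gpr6* at 51.2 (41.8 to 60.7), *Adora1* at 31.1 (26.6 to 34), *Gpr155* at 16.4 (14.5 to 20.4) and *Gpr149* at 2.08 CPM per kb (1.63 to 2.51). No neighbours in this order overlapped. At 12 months the order was the same, from 132 CPM per kb for *Adora2a* (114 to 156) to 2.13 for *Gpr149* (1.47 to 2.45), again without overlap. In LacQ140 striatum at 12 months *Adora2a* was at 63.4 CPM per kb (56.3 to 69.7), while *Adora1* at 35.8 (34.2 to 37.5) and *Gpr6* at 31.4 (26.2 to 38.5) overlapped and stood in the reverse order. In WT + IPTG cortex at 6 months *Adora1* came first at 46.9 CPM per kb (42.1 to 51.7), then *Gpr155* at 5.19 (4.58 to 5.68), *Adora2a* at 2.81 (1.16 to 5.75), *Gpr6* at 1.36 (0.643 to 2.79) and *Gpr149* at 0.285 (0.0748 to 0.705). There the ranges of all 3 neighbouring pairs from *Gpr155* to *Gpr149* overlapped.

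The tissue contrast was measured within the same mice. In WT + IPTG mice all 5 receptors were called between striatum and cortex at both ages, where 31.2% of 33703 genes passed at 6 months and 52.4% of 32388 genes at 12 months. *Adora2a* was 42.4-fold higher in striatum at 6 months (log2 fold change 5.41, SE 0.214, edgeR adjusted p = 3.8e-14) and 112-fold higher at 12 months (log2 fold change 6.80). *Gpr6* was 39.7-fold and 51.4-fold higher, *Gpr149* 7.59-fold and 9.81-fold, and *Gpr155* 3.14-fold and 6.28-fold. These 4 receptors were thus higher in striatum at both ages. *Adora1* changed side: its striatal level was 0.663 of the cortical level at 6 months (adjusted p = 1.4e-08, log2 fold change -0.59 with SE 0.054) and 1.62 times the cortical level at 12 months (adjusted p = 9.8e-08, log2 fold change 0.69 with SE 0.082). The cortical mean of *Adora1* was 272 ± 22.2 CPM at 6 months and 122 ± 19.3 CPM at 12 months, and its striatal mean 180 ± 14 and 218 ± 12.3 CPM (SD, n = 10 each). Over the 60 cortical libraries at 12 months, *Adora1* moved with the length slope (Pearson r = 0.92, Spearman rho = 0.93, permutation p = 1e-05 for both, the smallest that 100000 resamples can give; r = 0.91 without the 2 farthest libraries). These correlations used log2 values less the group mean, and 20 relations of the members to the slope or to spiny neuron markers in cortex were computed (adjusted p = 3e-05). *Gpr155* also moved with the slope, with r = 0.86 at 6 months (rho 0.83, permutation p = 1e-05, adjusted p = 3e-05, r = 0.83 without the 2 farthest) and 0.48 at 12 months (rho 0.48, permutation p = 9e-05 and 5e-05, adjusted p = 2e-04, r = 0.44). At 6 months the relation of *Adora1* to the slope was r = 0.20 over 50 libraries (rho = 0.23, permutation p = 0.158 and 0.111, r = 0.19 without the 2 farthest, adjusted p = 0.211).

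**Figure D1:**
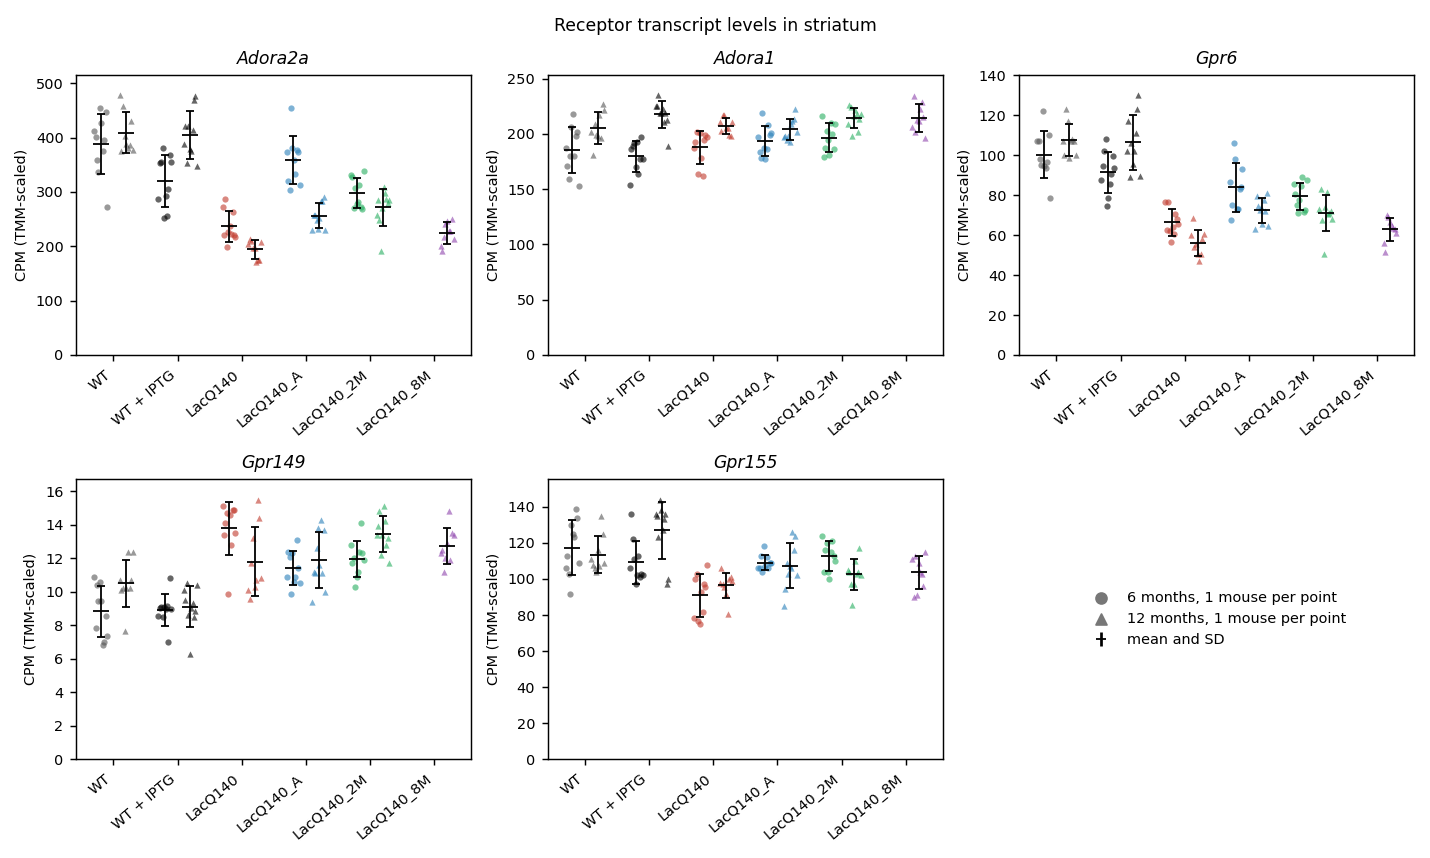
TMM-scaled CPM of the 5 receptors in striatum, 1 point per mouse, with the mean and SD of each group. Circles are 6-month and triangles 12-month libraries. At 12 months every LacQ140 mouse lay below every WT and WT + IPTG mouse for *Adora2a* and *Gpr6*, whereas the groups overlapped for *Adora1*.

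LacQ140 mice were compared with WT + IPTG mice, which received the same treatment, to measure the effect of mutant *Htt* expression. In striatum, 4 of the 5 receptors were called at each age: *Adora2a*, *Gpr6* and *Gpr155* were lower and *Gpr149* was higher. Of all genes tested, 7.93% of 35808 were called at 6 months and 9.44% of 35386 at 12 months. *Adora1* was not called at either age.

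*Adora2a* at 6 months ran from 253.2 to 381 CPM in WT + IPTG striatum, with a median of 330, and from 198 to 286.99 CPM in LacQ140 striatum, with a median of 225. The 2 groups overlapped, with the LacQ140 mice in the lower part. The fitted level fell to 0.738 of WT + IPTG (95% interval 0.664 to 0.82; log2 fold change -0.44, SE 0.076, edgeR adjusted p = 2.2e-05). By 12 months the range was 348 to 477 CPM (median 402) in WT + IPTG and 172 to 214 CPM (median 196) in LacQ140. No mouse of either group lay within the range of the other. The level was 0.479 of WT + IPTG (95% interval 0.438 to 0.525; log2 fold change -1.06, SE 0.065, adjusted p = 1.9e-21).

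*Gpr6* followed the same course. At 6 months it ran from 74.7 to 108.4 CPM (median 92.1) in WT + IPTG and from 56.5 to 76.8 CPM (median 64.8) in LacQ140, so that the groups met only at their edges. The level was 0.725 of WT + IPTG (95% interval 0.657 to 0.8; log2 fold change -0.46, SE 0.070, edgeR adjusted p = 1.8e-06). At 12 months it ran from 89 to 130 CPM (median 104) and from 46.9 to 68.7 CPM (median 55.8), with no overlap. The level was 0.527 of WT + IPTG (95% interval 0.478 to 0.581; log2 fold change -0.92, SE 0.070, adjusted p = 3.3e-17).

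*Gpr155* was lower by a smaller margin. At 6 months it ran from 97 to 136 CPM (median 105) in WT + IPTG and from 75.2 to 108.01 CPM (median 94) in LacQ140 (log2 fold change -0.27, SE 0.064, edgeR adjusted p = 0.002). By 12 months the ranges were 97 to 144 CPM (median 134) and 80.8 to 106 CPM (median 97.9; log2 fold change -0.40, SE 0.065, adjusted p = 2.4e-06). The groups overlapped at both ages.

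*Gpr149*, the least abundant of the 5, was the only one called higher. At 6 months it ran from 6.97 to 10.8 CPM (median 9) in WT + IPTG and from 9.86 to 15.1 CPM (median 14.4) in LacQ140. The level was 1.55 times that of WT + IPTG (95% interval 1.39 to 1.72; log2 fold change 0.63, SE 0.077, edgeR adjusted p = 9.4e-09), and the lone overlapping LacQ140 mouse was the 1 at 9.86 CPM, apart from the next at 12.8 CPM. At 12 months the ranges were 6.29 to 10.5 CPM (median 9.18) and 9.54 to 15.5 CPM (median 10.8), with more overlap (log2 fold change 0.37, SE 0.085, adjusted p = 7.1e-04). In striatum the gene had between 259 and 884 counts per library.

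*Adora1* ran from 154 to 197 CPM (median 182) in WT + IPTG and from 162 to 202 CPM (median 194) in LacQ140 striatum at 6 months (log2 fold change 0.06, SE 0.054, edgeR adjusted p = 0.56). By 12 months the ranges were 189 to 235 CPM (median 219) and 198 to 217 CPM (median 205; log2 fold change -0.07, SE 0.039, adjusted p = 0.26). The 95% interval of the ratio was 0.969 to 1.13 at 6 months and 0.9 to 1 at 12 months, which leaves out a change of the size seen for *Adora2a* or *Gpr6*.

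The difference between ages was itself tested in 1 fit over both. The LacQ140 effect was more negative at 12 than at 6 months for *Adora2a* (difference in log2 fold change -0.63, SE 0.102, edgeR adjusted p = 1.9e-05) and for *Gpr6* (-0.46, SE 0.101, adjusted p = 0.003). These were 2 of the 5 receptors, where 2.07% of 37391 genes were called. For *Gpr149* the difference was -0.26 (adjusted p = 0.28), for *Adora1* -0.14 (adjusted p = 0.33) and for *Gpr155* -0.13 (adjusted p = 0.64), none of them called. Since the 2 ages were 2 batches, the change of the effect with age cannot be told apart from a change with batch.

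**Figure D2:**
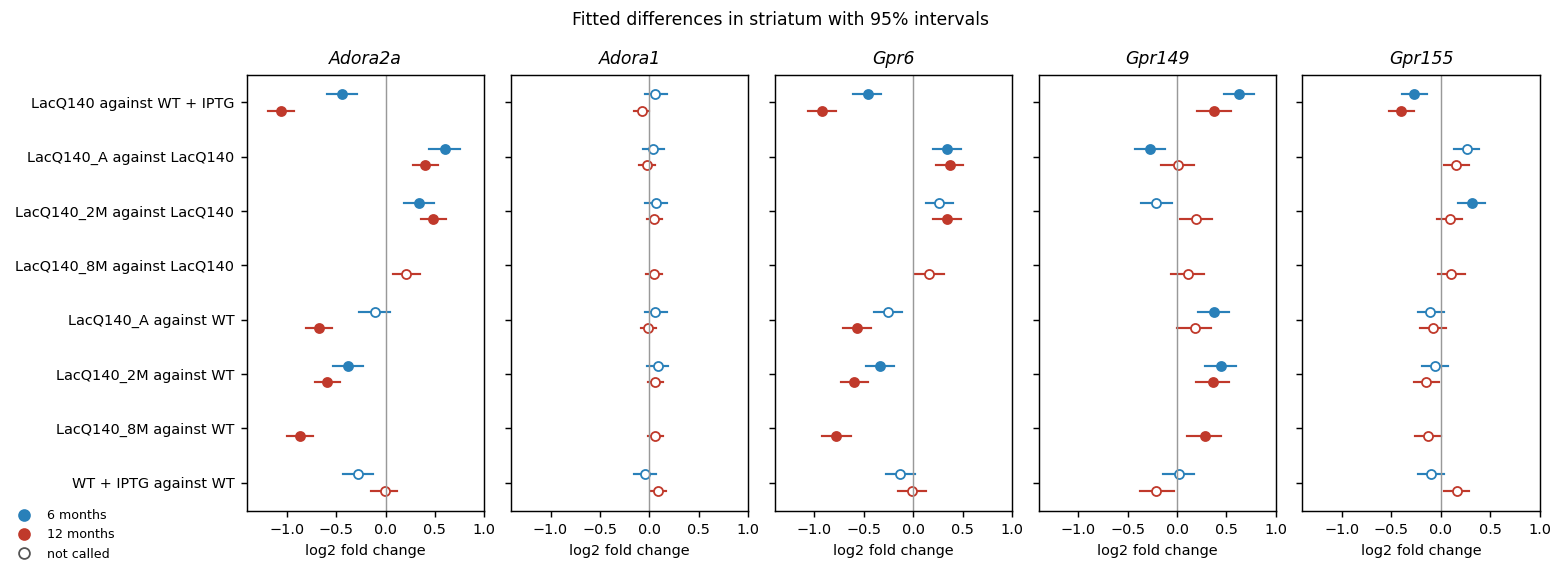
Fitted log2 fold changes in striatum with 95% intervals for 8 comparisons, 6 months in blue and 12 months in red. Filled points were called and open points were not. *Adora2a* and *Gpr6* lie left of 0 in LacQ140 against WT + IPTG and right of 0 in LacQ140_A and LacQ140_2M against LacQ140, whereas all points of *Adora1* are open.

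Lowering of mutant *Htt* was measured against LacQ140 mice on IPTG, the same mice as in the comparison with WT + IPTG. At 6 months LacQ140_A striatum had *Adora2a* between 304.2 and 455 CPM (median 365), above all 10 LacQ140 mice (log2 fold change 0.60, SE 0.076, edgeR adjusted p = 9.5e-08). *Gpr6* was between 67.7 and 106 CPM (median 83.7) and was higher as well, with overlap (log2 fold change 0.34, adjusted p = 0.001), and *Gpr149* was between 9.89 and 13.1 CPM (median 11.2) and was lower (log2 fold change -0.27, adjusted p = 0.035). These 3 receptors were called, where 1.88% of 35808 genes were. *Gpr155*, at 104 to 118 CPM (median 107.99), had an adjusted p of 0.011 but a change just under the 20% bound (log2 fold change 0.26). For *Adora1* the log2 fold change was 0.04 (adjusted p = 0.80).

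In LacQ140_2M striatum at 6 months, *Adora2a* was between 269 and 338 CPM (median 295) and *Gpr155* between 99.9 and 124 CPM (median 114). Both were called higher than in LacQ140, with log2 fold changes of 0.34 (SE 0.076, edgeR adjusted p = 0.007) and 0.31 (SE 0.064, adjusted p = 0.002), where 1.26% of genes were called. *Gpr6*, at 71.2 to 88.9 CPM (median 79.1), had an adjusted p of 0.035 but a change just under the bound (log2 fold change 0.26); with the length slope as a covariate it was called (0.28, adjusted p = 0.011). *Gpr149* was at 10.3 to 14.1 CPM (median 12; log2 fold change -0.21, adjusted p = 0.20).

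At 12 months *Adora2a* and *Gpr6* were called in both early lowering groups, and no other receptor was. *Adora2a* was between 230 and 290 CPM (median 254.5) in LacQ140_A, above every LacQ140 mouse (log2 fold change 0.40, SE 0.064, edgeR adjusted p = 2.3e-05), and *Gpr6* between 63.1 and 81.1 CPM (median 73.2; log2 fold change 0.37, adjusted p = 5.2e-04), where 0.91% of 35386 genes were called. In LacQ140_2M *Adora2a* was between 191 and 308.7 CPM (median 283; log2 fold change 0.48, SE 0.064, adjusted p = 5.8e-07) and *Gpr6* between 50.3 and 83.1 CPM (median 71.5; log2 fold change 0.34, adjusted p = 0.002), where 0.608% of genes were called. The lowest value of both genes came from the same LacQ140_2M mouse, female replicate 4, whose summed pan spiny neuron markers, *Ppp1r1b* and *Pde10a* among them, were also the lowest of the group, at 3231 CPM against a median of 4530. Without it the log2 fold changes were 0.53 and 0.39. *Gpr149* was higher than in LacQ140 by a log2 fold change of 0.19 in LacQ140_2M (adjusted p = 0.49) and 0.01 in LacQ140_A (adjusted p = 1.0).

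Late withdrawal of IPTG was measured at 12 months in LacQ140_8M striatum, where *Htt* was at the level of LacQ140 striatum (110.86 and 110.95 CPM, both alleles counted). The mean length slope was 0.411 ± 0.043 in LacQ140_8M and 0.367 ± 0.056 in LacQ140 striatum (SD, n = 9 each), and its part in the *Htt* level was not tested. By protein, the paper reported less soluble mutant HTT in the striatum of all lowered groups than in LacQ140. In cortex of the same age *Htt* was at 18 ± 4.01 CPM in LacQ140_8M, 23.9 ± 4.18 in LacQ140 and 17.7 ± 4.66 in LacQ140_2M (SD, n = 10 each). *Adora2a* was between 192 and 250 CPM (median 228.7), overlapping the LacQ140 mice (log2 fold change 0.21, SE 0.066, unadjusted p = 0.002, edgeR adjusted p = 0.86), and *Gpr6* between 51.7 and 70.3 CPM (median 63.7; log2 fold change 0.16, unadjusted p = 0.026, adjusted p = 0.86). The count of receptors called was 0 of 5, with 2 at an unadjusted p under 0.05 and 0 called by DESeq2. Of all genes 2 of 35386, or 0.00565%, were called by edgeR and 1 by DESeq2, and 1815 had an unadjusted p under 0.05. Set directly against LacQ140_2M, LacQ140_8M had a log2 difference in *Adora2a* of -0.28 (adjusted p = 0.053, SE 0.064), which was not called, where 0.0933% of genes were. The value lay near the threshold: with all libraries *Adora2a* was called by DESeq2 (-0.27, adjusted p = 0.044), with a filter on low counts (adjusted p = 0.048) and with sex as a covariate (adjusted p = 0.043), and without female replicate 4 of LacQ140_2M the log2 fold change was -0.32 (adjusted p = 0.003). *Gpr6* had a log2 fold change of -0.18 there (adjusted p = 0.48).

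The difference of the lowering effect between ages was called for none of the 5 receptors, in LacQ140_A (0.134% of 37391 genes called) or in LacQ140_2M (0.0241%). By unadjusted p under 0.05 there were 1 and 2 of the 5, beside 2580 and 2687 of 37391 genes, and DESeq2 called 0 receptors in both. The largest difference was that of *Gpr149* in LacQ140_2M, 0.40 (SE 0.112, unadjusted p = 5.6e-04, edgeR adjusted p = 0.19).

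The groups without IPTG at sampling were also set against WT mice, since IPTG was absent in both at sampling. In LacQ140_A at 6 months 1 of 5 receptors was called, *Gpr149* (log2 fold change 0.37, SE 0.078, edgeR adjusted p = 0.005), where 0.91% of 35808 genes were. *Adora2a* had a log2 fold change of -0.11 (adjusted p = 0.58), and *Gpr6* had one of -0.26 (adjusted p = 0.048), just under the 20% bound. In LacQ140_2M at 6 months *Adora2a* (-0.38, adjusted p = 0.002), *Gpr6* (-0.34, adjusted p = 0.004) and *Gpr149* (0.44, adjusted p = 3.2e-04) were called, where 0.936% of genes were.

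At 12 months *Adora2a* and *Gpr6* were below WT in LacQ140_A, LacQ140_2M and LacQ140_8M, and no mouse of those groups reached the lowest WT mouse, at 376 CPM for *Adora2a* and 98.5 CPM for *Gpr6*. *Adora2a* was at 0.627 of the WT level in LacQ140_A, 0.664 in LacQ140_2M and 0.549 in LacQ140_8M, with log2 fold changes of -0.67, -0.59 and -0.87 (edgeR adjusted p of 1.9e-12, 1.0e-10 and 8.1e-17). *Gpr6* was at 0.674, 0.662 and 0.584 of WT, with log2 fold changes of -0.57, -0.60 and -0.78 (adjusted p of 5.7e-09, 1.0e-09 and 1.6e-13). *Gpr149* was above WT in LacQ140_2M (0.36, adjusted p = 0.003) and LacQ140_8M (0.28, adjusted p = 0.023) and had a log2 fold change of 0.18 in LacQ140_A (adjusted p = 0.32). With the length slope as a covariate the value for LacQ140_8M was 0.18 (adjusted p = 0.20). The shares of all genes called were 3.15% in LacQ140_A, 4.09% in LacQ140_2M and 7.77% in LacQ140_8M. *Gpr155* and *Adora1* were not called against WT in any of these groups.

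IPTG by itself was tested in WT mice. None of the 5 receptors was called in striatum, where 0.584% of genes were at 6 months and 0.218% at 12 months, and DESeq2 called 0 at both ages. At an unadjusted p under 0.05 there were 1 at 6 months and 3 at 12 months, as were 3179 of 35808 and 4039 of 35386 genes. The 1 at 6 months was *Adora2a*, which ran from 253.2 to 381 CPM with IPTG and from 272 to 455 CPM (median 399) without (log2 fold change -0.28, SE 0.076, unadjusted p = 5.7e-04, edgeR adjusted p = 0.068). At 12 months *Adora2a* had -0.01 (adjusted p = 1.0), and the 3 were *Gpr149* (-0.21, unadjusted p = 0.019, adjusted p = 0.30), *Gpr155* (0.16, unadjusted p = 0.014, adjusted p = 0.27) and *Adora1* (0.09, unadjusted p = 0.031, adjusted p = 0.37). Those of *Gpr149* and *Gpr155* are opposite in sign to their 12-month values in LacQ140 against the same WT + IPTG mice. Unlike LacQ140 mice, neither LacQ140_A nor LacQ140_2M mice received IPTG at sampling, so a part of their 6-month differences from LacQ140 in *Adora2a* (0.60 and 0.34) cannot be told apart from that of IPTG. Set against WT + IPTG in place of WT, *Adora2a* in LacQ140_2M at 6 months had a log2 fold change of -0.10 (adjusted p = 0.64) and *Gpr6* one of -0.20 (adjusted p = 0.14), neither of them called.

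Females and males were compared within striatum, with the group in the fit. Of the 5 receptors 0 were called at 6 or 12 months by edgeR or DESeq2, where 0.279% and 0.218% of all genes were called. At an unadjusted p under 0.05 there were 0 receptors, beside 3602 and 3665 of all genes. The log2 fold changes of females against males ran from -0.09 for *Gpr149* at 12 months to 0.06 for *Gpr6* at 6 months.

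*Adora2a* and *Gpr6* moved together from mouse to mouse. With the group mean taken off log2 CPM, Pearson r was 0.77 over 50 libraries at 6 months and 0.79 over 57 at 12 months (Spearman rho 0.75 and 0.70, permutation p = 1e-05 each, the smallest that 100000 resamples can give, adjusted p = 1e-05 over 2 relations; r = 0.71 at both ages without the 2 farthest libraries). Over all striatal libraries, groups included, the pair had r = 0.86 and 0.97, a likeness of 0.91 as the mean of both ages. Among 13282 genes with a mean log2 CPM of at least 1, *Gpr6* was eighth in likeness to *Adora2a*. These points share the group differences and library scaling, so they describe the pattern and are no test. The 3 genes most like *Adora2a* were *Pde1b*, a calcium-dependent phosphodiesterase (0.95), *Adcy5*, adenylyl cyclase 5 (0.92), and *Ptpn7*, a tyrosine phosphatase (0.92). Those most like *Gpr6* were *Ccm2* (0.94), *Lrrc10b* (0.93) and *Gnb5*, the G protein beta 5 subunit (0.92). *Gpr155* was most like *Socs5* (0.88), *Rgs7bp*, an anchor of RGS proteins at the membrane (0.87), and *Htr1b*, a serotonin receptor (0.86). Among the genes most like *Gpr149* were *Nr3c2*, the mineralocorticoid receptor (0.75), and *Polr2a*, the largest subunit of RNA polymerase II (0.74), and *Gpr149* had a likeness of -0.49 to *Adora2a*. *Adora1* was most like *Nacc1* (0.79), *Mras* (0.78) and *Cacna1i*, a calcium channel (0.78), and had a likeness of 0.25 to *Adora2a*.

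**Figure D3:**
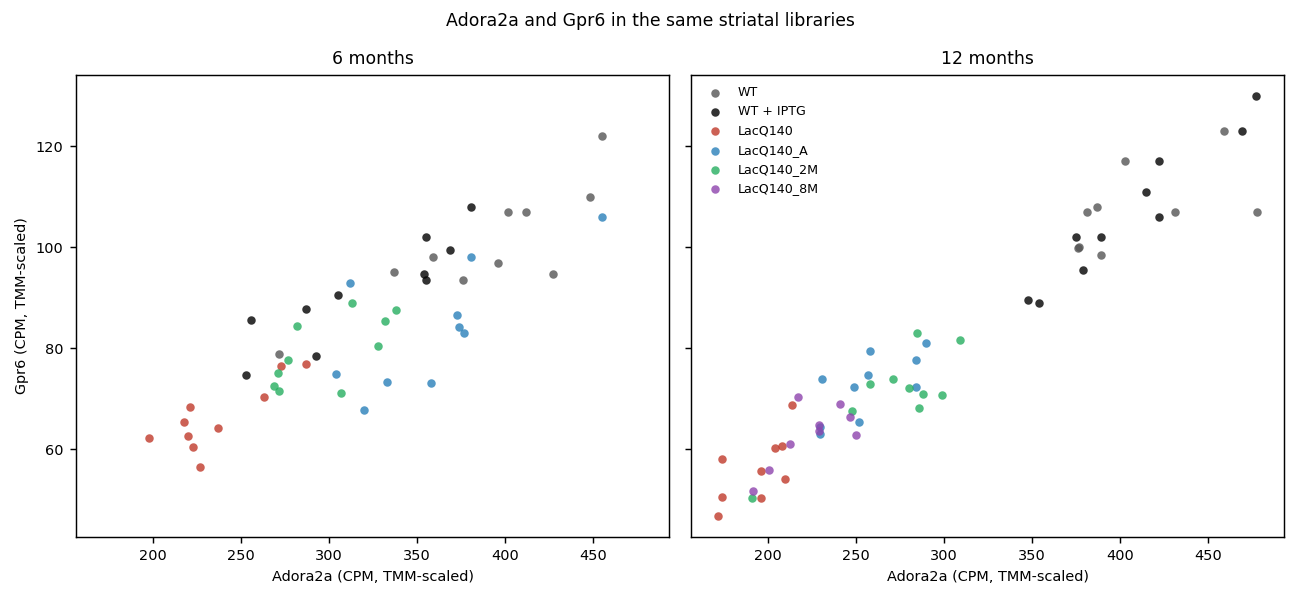
*Gpr6* against *Adora2a* in the same striatal libraries, TMM-scaled CPM, 1 point per mouse and 1 color per group. At 12 months the WT and WT + IPTG mice stand apart at the upper right, from 348 CPM of *Adora2a* upward, and 1 LacQ140_2M mouse lies among the LacQ140 mice, at 191 and 50.3 CPM.

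Of 6 D2 type markers (*Drd2*, *Penk*, *Sp9*, *Ptprm*, *Grik3*, *Upb1*), 3 were lower and 1 was higher in LacQ140 than in WT + IPTG striatum at 6 months, and 3 were lower at 12 months, where 7.93% and 9.44% of all genes were called in either direction. *Drd2*, the D2 dopamine receptor, was lower in LacQ140 than in WT + IPTG striatum by log2 fold changes of -0.45 at 6 months and -0.86 at 12 months, and *Penk*, the enkephalin precursor, by -0.72 and -1.30 (edgeR adjusted p from 2.8e-22 to 7.0e-05). The ratio of *Adora2a* to *Drd2* CPM within a library was 1.5 ± 0.133 in WT + IPTG and 1.52 ± 0.191 in LacQ140 at 6 months, and 1.22 ± 0.134 and 1.05 ± 0.0561 at 12 months (SD, n = 9 or 10). The ratio of *Adora2a* to *Penk* was 0.186 ± 0.0133 and 0.226 ± 0.0224 at 6 months, and 0.217 ± 0.0157 and 0.255 ± 0.0162 at 12 months, and that of *Gpr6* to *Penk* 0.057 ± 0.00391 and 0.0736 ± 0.00374 at 12 months. The ratio of *Gpr6* to *Drd2* was 0.43 ± 0.0453 and 0.427 ± 0.0551 at 6 months, and 0.319 ± 0.0361 and 0.304 ± 0.0209 at 12 months. *Upb1* was lower as well (-0.86 and -1.69), *Sp9* was higher at 6 months (0.42), and *Ptprm* and *Grik3* were called at neither age. The sum of the 6 was 1669 to 2506 CPM in WT + IPTG and 1224 to 1457 in LacQ140 at 6 months, and 1893 to 2796 and 997 to 1245 at 12 months, with no overlap. It was made up mostly of *Penk*, at a mean of 1725 CPM of the 2072 CPM in WT + IPTG at 6 months.

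*Drd1*, which marks the D1 type, was lower as well (-0.39 and -0.82), with 1 of 6 D1 type markers lower and 1 higher at 6 months and 3 lower at 12 months. Of 6 pan spiny markers, 4 were lower at 6 months and 6 at 12 months, with a median log2 fold change of -0.29 and -0.66, against 0.00 over all genes. For both lists, too, the shares of all genes called were 7.93% and 9.44%. The sum of 6 pan neuronal markers was 3858 to 4367 CPM in WT + IPTG and 3938 to 4366 in LacQ140 at 6 months, and 4460 to 4757 and 4101 to 4789 at 12 months, and none of the 6 was called. Oligodendrocyte markers summed to 12571 to 16162 CPM in WT + IPTG and 9681 to 12161 in LacQ140 at 6 months and to 11151 to 14936 and 8530 to 13912 at 12 months. At 6 months astrocyte markers summed to 2336 to 2894 CPM in WT + IPTG and 1879 to 2330 in LacQ140, and microglial markers to 508 to 601 and 434 to 509. The 12-month ranges were 1970 to 2369 and 1791 to 2063 CPM for astrocyte and 499 to 572 and 453 to 529 CPM for microglial markers. Endothelial markers had mean sums of 290 CPM in WT + IPTG and 237 in LacQ140 at 6 months, and 280 and 235 at 12 months. Choroid plexus markers stood apart in some libraries: in striatum their sum reached 724 CPM in WT + IPTG and 88.5 in LacQ140 at 6 months and 426 and 43.6 at 12 months, with medians from 31.7 to 42.6 CPM in these groups. In 12-month cortex the medians were 19.7 CPM in WT + IPTG and 574 CPM in LacQ140. Cortical excitatory markers in striatum summed to at most 87 CPM in any WT + IPTG mouse and to 318 CPM in 1 LacQ140 mouse at 12 months, male replicate 2; without that mouse the log2 fold changes against WT + IPTG were -1.04 for *Adora2a* (edgeR adjusted p = 3.8e-20) and -0.89 for *Gpr6* (adjusted p = 4.6e-16). Their median sum at 6 months was 31.5 CPM in WT + IPTG and 10 CPM in LacQ140 striatum, with 1 of 6 markers called lower (median log2 fold change -0.78). At 12 months it was 11.4 and 9.86 CPM, with 2 of 6 called higher (median 1.18). Of all genes 7.93% and 9.44% were called. The 12-month calls include the LacQ140 mouse at 318 CPM, and the 12-month mean sums were 19.4 CPM in WT + IPTG and 44.9 CPM in LacQ140. No marker of these lists was at 0 in all libraries. The sums also differed between the lowering groups and LacQ140. At 6 months the mean D2 type sum was 1349 CPM in LacQ140, 1904 in LacQ140_A and 1789 in LacQ140_2M striatum, and the pan spiny sum 3996, 5057 and 4898 CPM. At 12 months the D2 type means were 1107, 1449 and 1409 CPM, with 1210 in LacQ140_8M and 2398 in WT. The pan spiny means were 3717, 4509 and 4405 CPM, with 4109 and 6440. The part of cell composition in the receptor changes was not tested.

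The wider pathway was read from lists of genes. Of 20 G proteins, cyclases and regulators, 5 were lower and 0 higher in LacQ140 against WT + IPTG striatum at 6 months, and 10 were lower and 0 higher at 12 months, where 7.93% and 9.44% of all genes were called in either direction, with median log2 fold changes of -0.12 and -0.27 against 0.00 over all genes. *Adcy5* had log2 fold changes of -0.35 and -0.91 and *Gnb5* of -0.38 and -0.52. Named for the size of their change, *Rgs14* had -0.60 and -1.20, *Rgs4* -0.65 and -0.85, and *Rgs9* -0.33 and -0.74; RGS proteins speed the turning off of G proteins. *Gng7*, the gamma subunit of striatal Golf, was called at 12 months (-0.48, edgeR adjusted p = 5.9e-11) and had -0.12 at 6 months (adjusted p = 0.24). *Gnal*, the Golf alpha subunit that couples the *Adora2a* receptor to cyclase, had -0.08 at 6 months (adjusted p = 0.55) and -0.25 at 12 months, with an adjusted p of 4.5e-05 but a change under the 20% bound. In LacQ140_A against LacQ140, 4 of the 20 were higher at 6 months and 1 at 12 months, where 1.88% and 0.91% of all genes were called. In LacQ140_2M 4 and 3 were higher, where 1.26% and 0.608% were called, and in LacQ140_8M edgeR called 0, where 0.00565% were called.

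Of 14 genes of adenosine supply and removal, 1 was lower at 6 months, and 1 was lower and 1 higher at 12 months, shares near those of all genes called (7.93% and 9.44%). *Entpd1*, an ectonucleotidase that takes ATP toward AMP, was lower (-0.29, edgeR adjusted p = 7.0e-05, and -0.43, adjusted p = 4.8e-07), and *Enpp1*, another ectonucleotidase, was higher at 12 months (0.47, adjusted p = 2.7e-05). The remaining adenosine receptors were scarce. *Adora2b* was at 4.64 ± 0.544 CPM in WT + IPTG and 3.58 ± 0.599 in LacQ140 at 6 months (log2 fold change -0.37, adjusted p = 0.003), with -0.18 at 12 months (adjusted p = 0.27). *Adora3* was at 1.57 ± 0.288 and 1.2 ± 0.216 CPM at 6 months (-0.37, adjusted p = 0.095), with 0.05 at 12 months (adjusted p = 0.96).

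Of 43 other orphan receptors, 5 were lower and 8 higher at 6 months, and 10 lower and 8 higher at 12 months, where 7.93% and 9.44% of all genes were called in either direction, with medians of 0.11 and 0.02. *Gpr83* was lower at both ages (-0.36 and -0.76). *Gpr139* was lower at 12 months (-1.17, edgeR adjusted p = 8.6e-13), with -0.32 at 6 months (adjusted p = 0.074), as was *Gpr63* (-0.77, adjusted p = 9.8e-04), with -0.10 at 6 months (adjusted p = 0.72). *Gpr101* rose at both ages (0.79 and 0.92), as did *Gpr21* (0.62 and 0.54), the direction of *Gpr149*. *Gpr3* and *Gpr12*, the nearest relatives of *Gpr6*, had log2 fold changes at 6 months of 0.00 (adjusted p = 1.0) and 0.10 (adjusted p = 0.41), and neither was called. At 12 months *Gpr3* was called (-0.56, adjusted p = 0.026), and *Gpr12* had -0.20 (adjusted p = 0.010), under the 20% bound.

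**Figure D4:**
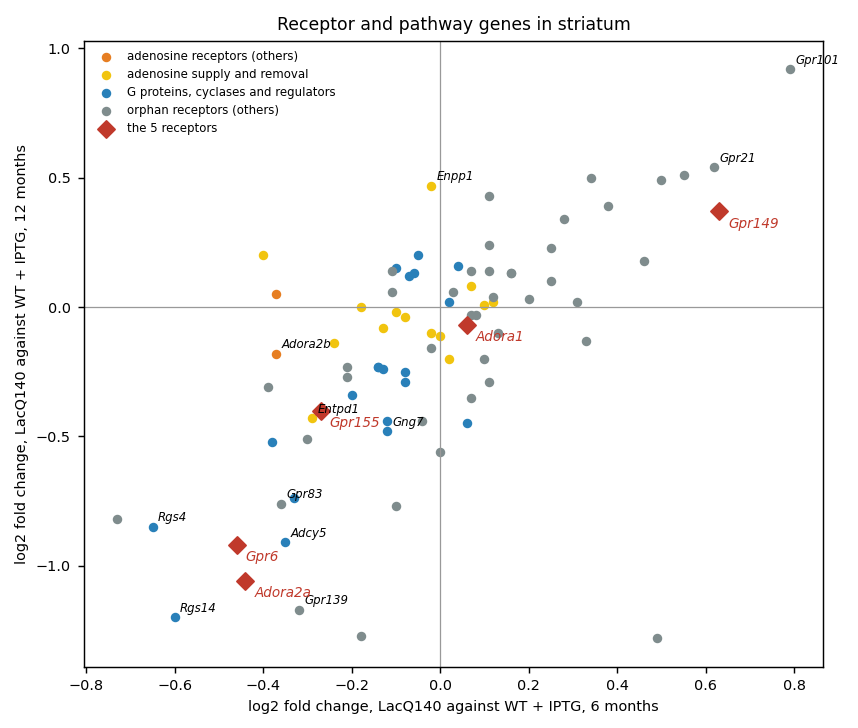
Log2 fold changes of LacQ140 against WT + IPTG striatum at 12 months against those at 6 months, 1 point per gene, with the 5 receptors as red diamonds and the pathway lists in other colors. *Adora2a* and *Gpr6* lie at the lower left beside *Rgs14*, *Rgs4* and *Adcy5*, and *Gpr149* at the upper right beside *Gpr21*.

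In cortex none of the 5 receptors was called in any comparison of groups, and DESeq2 called 0 as well. LacQ140 against WT + IPTG had 0.881% of 35987 genes called at 6 months and 0.0899% of 34493 at 12 months. At an unadjusted p under 0.05 there was 1 receptor at each age, *Adora2a*, beside 3578 and 2995 of all genes. WT + IPTG against WT had 0.609% and 0% called, LacQ140_A against LacQ140 0.00834% and 0.0435%, LacQ140_2M against LacQ140 0% and 0.0841%, and LacQ140_8M against LacQ140 0%. In the comparisons with a count of 0, edgeR gave 3498 genes (LacQ140_2M, 6 months), 2001 (WT + IPTG, 12 months) and 976 (LacQ140_8M, 12 months) at an unadjusted p under 0.05, and DESeq2 called 7, 15 and 0. Receptors with an unadjusted p under 0.05 numbered 1 in LacQ140_2M at 6 months, 1 in LacQ140_A at 12 months and 2 in LacQ140_8M, and 0 in the others. In LacQ140_A at 12 months 4546 of all genes had such a p. The values of *Adora1* in LacQ140_A against LacQ140 at 12 months were -0.27 (adjusted p = 0.38), and a fit of those 2 groups alone called it (-0.27, adjusted p = 0.049). The mean length slope of these groups was -0.159 ± 0.070 in LacQ140_A and -0.078 ± 0.066 in LacQ140 (SD, n = 10 each), and with the slope as a covariate in the fit of all groups the log2 fold change of *Adora1* was 0.02 (adjusted p = 1.0).

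*Adora2a* in WT + IPTG cortex ran from 3.55 to 17.6 CPM (median 5.33) at 6 months and from 1.03 to 7.06 CPM (median 3.31) at 12 months, and in LacQ140 cortex from 2.78 to 9.25 CPM (median 4.6) and from 1.51 to 3.43 CPM (median 2.32). The log2 fold changes were -0.61 (SE 0.301, edgeR adjusted p = 0.50) and -0.53 (SE 0.249, adjusted p = 0.54). The spread within groups was thus wide. At 6 months the level followed the summed pan spiny neuron markers over 50 cortical libraries, which ran from 270 to 456 CPM, with r = 0.84 for *Adora2a*, 0.89 for *Gpr6* and 0.83 for *Gpr149* (rho 0.81, 0.87 and 0.82, permutation p = 1e-05 each, the smallest possible, adjusted p = 3e-05; r = 0.81, 0.87 and 0.80 without the 2 farthest libraries). For *Gpr155* r was 0.25 (rho 0.18, permutation p = 0.082 and 0.205, adjusted p = 0.136, r = 0.29 without the 2 farthest), and for *Adora1* -0.37 (rho -0.35, permutation p = 0.007 and 0.013, adjusted p = 0.017, r = -0.32). At 12 months, over 60 libraries, r was 0.52 for *Adora2a* (rho 0.43, permutation p = 2e-05 and 9e-04, adjusted p = 6e-05, r = 0.44 without the 2 farthest) and 0.26 for *Gpr6* (rho 0.17, permutation p = 0.046 and 0.184, adjusted p = 0.084, r = 0.12), and 0.20 for *Gpr149* (rho 0.10, permutation p = 0.123 and 0.433, adjusted p = 0.178, r = 0.11). The value for *Gpr155* was 0.20 as well (rho 0.14, permutation p = 0.125 and 0.294, adjusted p = 0.178, r = 0.14). *Adora1* changed sign between ages, with r = 0.66 at 12 months (rho 0.64, permutation p = 1e-05, adjusted p = 3e-05, r = 0.70 without the 2 farthest). In the same 12-month libraries *Adora1* followed the length slope more closely (r = 0.92). Whether the marker sum moved with the slope was not tested, so the 2 relations cannot be told apart.

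**Figure D5:**
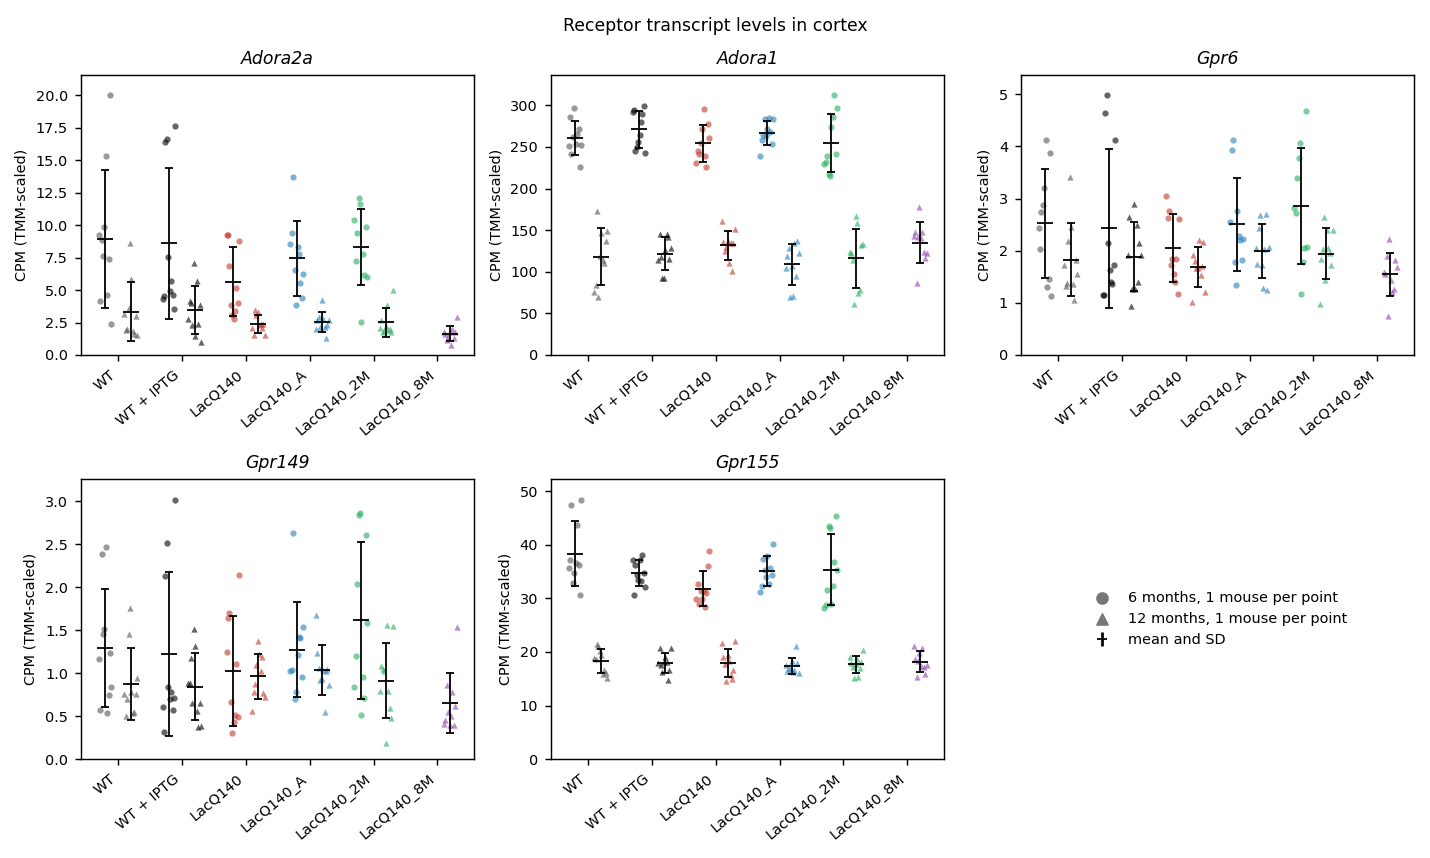
TMM-scaled CPM of the 5 receptors in cortex, 1 point per mouse, with the mean and SD of each group. Circles are 6-month and triangles 12-month libraries. *Adora1* is at 214.5 CPM or more in every 6-month library and at 178 CPM or less in every 12-month library, and *Adora2a* spreads from 2.37 to 20 CPM within the 6-month WT group.

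Whether the LacQ140 effect differed between tissues was tested in mice with both. At 12 months the effect was more negative in striatum than in cortex for *Gpr6* (difference in log2 fold change -0.77, SE 0.187, edgeR adjusted p = 0.011) and *Gpr155* (-0.39, SE 0.114, adjusted p = 0.041), 2 of the 5 receptors, where 3.51% of 34338 genes were called. *Adora2a* had a difference of -0.67 (SE 0.221, adjusted p = 0.091) and *Gpr149* one of 0.11 (adjusted p = 1.0). With DESeq2 size factors the adjusted p of *Gpr155* was 0.051, and 1 receptor was called. The length slope, with which *Gpr155* moved in 12-month cortex (r = 0.48), was not a covariate in these fits. Its mean there was -0.124 ± 0.075 in WT + IPTG and -0.078 ± 0.066 in LacQ140 (SD, n = 10 each). At 6 months 0 of the 5 were called by edgeR or DESeq2, where 1.39% of 35737 genes were called by edgeR. At an unadjusted p under 0.05 there was 1 receptor, beside 3738 of all genes. The differences ran from -0.30 for *Gpr6* (edgeR adjusted p = 0.82) to 0.84 for *Gpr149* (SE 0.354, adjusted p = 0.35).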

How the data were processed

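The authors deposited expected counts (estimated counts per gene, not normalized) in 1 table per age; the submitters' processing notes name GRCm38, and the aligner and counter are not given in the sources used here. Of 54532 identifiers, 54495 matched GENCODE vM21, and 26.79% of nonzero values were not whole (tolerance 0.001). Rounding to whole numbers preceded the test, edgeR 4.0.16's quasi-likelihood F-test in R 4.3.3, on genes with at least 1 count and with TMM factors; SEs come from the F statistic and intervals are 95%. Contrasts between tissues were blocked by mouse. DESeq2 1.42.0 and other settings were alternatives. Within groups, 963 pairs of libraries were checked for duplicates, with a smallest chi-square per degree of freedom of 6.5. The edgeR test was also run on data simulated for LacQ140 against WT + IPTG striatum at 6 months, and the outcome is not reported here. The members, gene lists and tests were chosen with earlier results of these data known. Named genes were the members, *Htt*, 12 fixed pathway genes, up to 4 called genes per pathway list with the largest change at a mean of at least 1 CPM, and the 3 genes most like each member (mean over both ages of Pearson r of log2 CPM, prior count 2); some of these are not reported here. Correlations in cortex used log2(CPM + 0.1).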

Additional observations from a re-analysis of the deposited data

Results flagged for a closer look

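Over 110 combinations of a receptor and a group of 9 or 10 mice, 10 held a value far from the rest, with a gap to its neighbor above Dixon's 95% critical value; chance gives about 1 in 20. LacQ140_2M female 4 accounts for 2 of them. In striatum these were *Adora2a* at 455 CPM in LacQ140_A female 4 at 6 months (next value 381), *Adora2a* at 191 CPM (next 248.3) and *Gpr6* at 50.3 CPM (next 67.6) in LacQ140_2M female 4 at 12 months, and *Adora1* at 189 CPM in WT + IPTG male 5 at 12 months (next 211). *Gpr149* stood apart at 9.86 CPM in LacQ140 female 5 at 6 months (next 12.8), at 7.64 CPM in WT female 5 at 12 months (next 10.1) and at 6.29 CPM in WT + IPTG female 5 at 12 months (next 8.47). In cortex they were *Gpr149* at 2.63 CPM in LacQ140_A female 3 at 6 months (next 1.54) and at 1.54 CPM in LacQ140_8M male 5 at 12 months (next 0.867), and *Gpr155* at 21.2 CPM in LacQ140_A male 3 at 12 months (next 18.3).

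The LacQ140 effect differed between ages in striatum for *Adora2a* (difference in log2 fold change -0.63) and *Gpr6* (-0.46), and between striatum and cortex at 12 months for *Gpr6* (-0.77) and *Gpr155* (-0.39), each by edgeR's test of the difference itself.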

How the results depend on the processing

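Each comparison was recomputed with DESeq2, with DESeq2 size factors in edgeR and with a filter on low counts. Comparisons of groups within 1 tissue and age were also recomputed with sex or the length slope as a covariate and with the compared groups alone. Of 1075 values for single receptors, 1056 kept their direction and side of the threshold, 15 became called, 4 lost the call, and no called value changed sign; 26 values that were not called in either setting changed sign. Of the counts of receptors called, 240 stayed within 1.5 times the main count and 8 did not. Without the 20% bound LacQ140_A against WT at 6 months had 2 receptors called in place of 1. With WT + IPTG in place of WT, LacQ140_2M at 6 months had 1 in place of 3, and at 12 months *Gpr149* in LacQ140_A (0.38, edgeR adjusted p = 7.8e-04) and *Gpr155* in LacQ140_2M and LacQ140_8M (-0.31 and -0.29) were called. LacQ140_8M against LacQ140_2M had 1 in place of 0 with DESeq2, with the filter on low counts, with the sex covariate and without LacQ140_2M female replicate 4. In cortex LacQ140_A against LacQ140 at 12 months had 1 in place of 0 with those groups alone, and the tissue difference at 12 months had 1 in place of 2 with DESeq2 size factors. The causes were not tested. Leaving out LacQ140_2M female 4 or LacQ140 male 2, chosen after seeing the data, was run at 12 months in striatum only; leaving out every library in turn was not run, with groups of 9 or 10.

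The replicate numbers of the labels are shared between groups, but same-numbered mice did not deviate together: the mean correlation of their deviations ran from -0.055 to 0.047 over the tissues and ages, with lowest pairs from -0.533 to -0.788. With the replicate block, LacQ140 against WT + IPTG had 4 receptors called in striatum at both ages, as without it. The block changed 1 call, that of *Gpr155* in LacQ140_A against LacQ140 at 6 months (log2 fold change 0.27, adjusted p = 0.015), so that 4 receptors were called in place of 3. That call, just under the 20% bound, was also gained with DESeq2, with DESeq2 size factors, with the filter on low counts, with those groups alone and with the sex covariate (log2 fold changes of 0.26 or 0.27). *Gpr149* in cortex rested on 8 to 187 counts per library, which limits what could be detected there.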
